A study of Mus musculus with 5 samples.

Results

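PU.1 occupancy was compared between conventional and plasmacytoid dendritic cells at the protein tyrosine phosphatase genes. The members were the protein-coding genes of the mouse RefSeq annotation whose symbol begins with Ptpn or Ptpr, which gave 38 genes of 21887. Of these, 34 had at least 1 tested window, out of 15001 gene loci tested. The other 4 were counted as members without a value: Ptprq and Ptpn13 had 2 listed windows each and none that passed the filter on low counts, and Ptpn20 and Ptprz1 had no listed window. The symbol rule also took in Ptprcap, which encodes a protein bound to CD45 and no phosphatase.

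Protein tyrosine phosphatases remove phosphate from tyrosine residues and so act against, or in the case of Src-family kinases sometimes with, the tyrosine kinases of receptor signalling. The receptor type (Ptpr) spans the membrane, and its extracellular part binds matrix, proteoglycans or the same protein on a neighbouring cell, while the non-receptor type (Ptpn) is reached through SH2, FERM, PEST or other domains. In leukocytes, CD45 and the SH2-domain phosphatases set the threshold of antigen, Fc and cytokine receptors, and Ptprs has been described as an inhibitory receptor of plasmacytoid dendritic cells. PU.1 is the ETS-family transcription factor that binds purine-rich sites with a GGAA core and is needed for myeloid and dendritic cell development.

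The cells came from C56BL/6 mice (spelled as labelled) and were grown in culture with Flt3L, the cytokine that drives both kinds of dendritic cell. The conventional cells (cDCs) and the plasmacytoid cells (pDCs) each gave 2 biological replicates of chromatin precipitated with a PU.1 antibody, and 1 library of unprecipitated input chromatin came from cDCs. No group carried a mutation or was treated beyond the culture. How the 2 cell types were separated is not given in the sources used here, and no pDC input was analysed here. The cDC libraries summed to 11034858 (replicate 1) and 11388554 (replicate 2) counts over the listed windows, the pDC libraries to 8099633 and 6896416, and the input to 2776490.

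A locus was the gene span with 10 kb on each side, and its signal was the sum of the counts in its tested windows, which are 10 bp wide on a 50 bp grid. Levels are CPM, the counts in 1e+06 counts of the TMM-scaled library, and log2 differences are pDC minus cDC with a standard error (SE). The SE was calculated back from the edgeR quasi-likelihood F-test, as the absolute log2 difference divided by the square root of F. A locus or site was called at an adjusted p below 0.05, with adjustment over all loci or all sites of the genome. A site is a run of windows at most 100 bp apart. With 2 libraries in each group, an exact permutation test cannot give a two-sided p below 0.333, so single values were read only through the fit across all loci or windows.

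The labels were compared with PU.1 signal at loci of marker genes, since RNA was not measured. Of 8 cDC markers, 5 were higher in cDCs (including H2-Eb1 and Zfp366) and none in pDCs, and their summed level was 1252 and 1210 CPM in the cDC libraries against 887 and 937 CPM in the pDC libraries. Of 7 measured pDC markers, 4 were higher in pDCs (Siglech, Bst2, Spib and Ly6d) and 1, Pacsin1, was higher in cDCs, with sums of 455 and 466 CPM in cDCs versus 822 and 641 CPM in pDCs. Of 9 measured markers of B, T, neutrophil and mast cells, Ms4a1 and Mpo were higher in pDCs and none in cDCs. Their sums were 251 and 240 CPM in cDCs versus 290 and 280 CPM in pDCs. The listed NK cell marker, Ncr1, had no tested window. No measured marker had a sum of 0 in any library, and the part of other cells in the results was not tested.

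Across the members, 4 loci were higher in pDCs (Ptprf, Ptprs, Ptpn6 and Ptprk), 2 were higher in cDCs (Ptpn11 and Ptprr), and 28 were not called by edgeR. Over all loci, 9.54% were called higher in pDCs and 6.97% higher in cDCs, 16.5% in all. The members' share called was 17.6%, near that background. The median log2 difference was 0.07 over the 34 members and 0.05 over all loci tested. With a minimum fold of 1.5 only Ptprf kept its locus call, and when libraries were scaled on the repeat windows (146 windows with at least 1000 input counts) none did. The counts also moved with single libraries: they were 2 and 0 (pDC-higher and cDC-higher) without cDC replicate 1 and without cDC replicate 2, 6 and 4 without pDC replicate 1, and 13 and 3 without pDC replicate 2, where 37.6% of all loci were called. The 2 cDC values lay wholly above or below the 2 pDC values at 20 members (58.8%), against 58.2% of all loci.

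**Figure D1:**
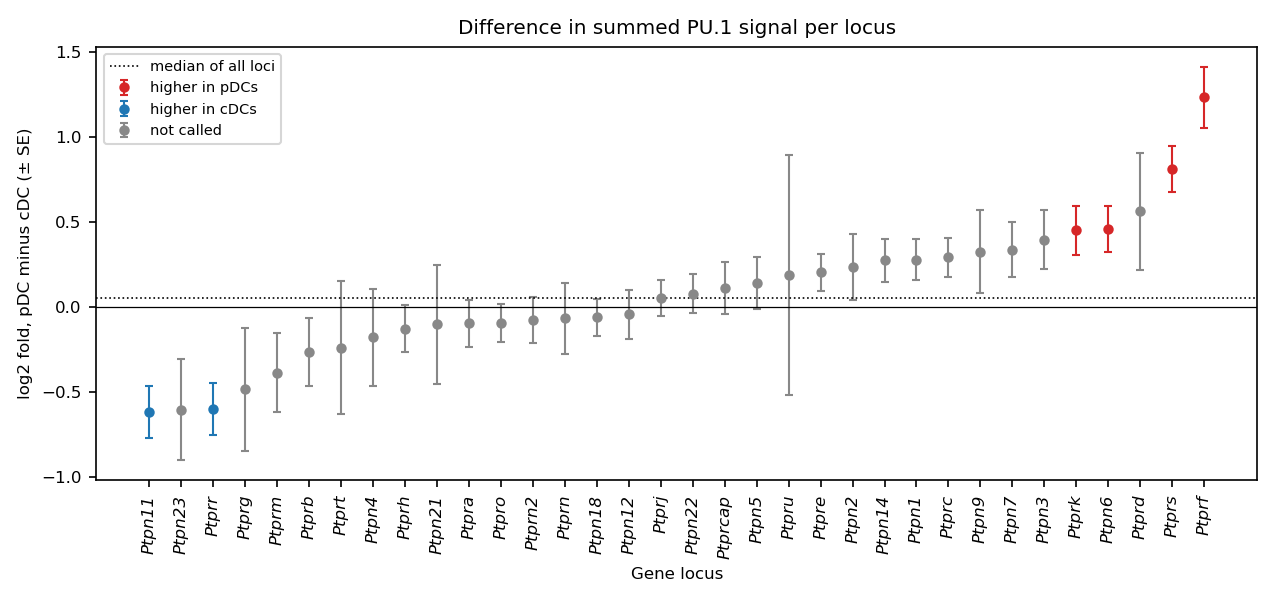
Log2 difference in summed PU.1 signal (vertical axis, pDC minus cDC) for the 34 members with tested windows, in order of the difference, with bars for the SE and colour for the call. The solid line is 0 and the dotted line the median of all loci (0.05): Ptprf stands highest at 1.23, and the 28 grey loci lie on both sides of 0.

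The LAR-type receptors, which carry immunoglobulin and fibronectin repeats and bind proteoglycans and synaptic partners, had the 2 highest log2 differences among the called members. At Ptprf (LAR), on chromosome 4 from 118208213 to 118291405, locus signal was 42.0 and 43.7 CPM in cDC replicates 1 and 2 and 116 and 84.9 CPM in pDC replicates 1 and 2. The pDC libraries were both well above the cDC libraries, and replicate 1 was the higher of the pDC pair. The log2 difference was 1.23 ± 0.18 (SE, n = 2 per cell type, edgeR adjusted p = 0.000635), a 2.35-fold difference. No window of the locus lay in another gene's locus.

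Ptprs (PTP sigma), on chromosome 17 from 56412426 to 56476561, gave 125 and 125 CPM in cDCs versus 244 and 196 CPM in pDCs. The groups did not overlap, and the difference was 0.81 ± 0.13 (edgeR adjusted p = 0.00141), or 1.76-fold. This locus too shared no window with another gene. Ptprd, the third LAR-type receptor, spans a very long gene with 6 tested windows and gave 7.59 and 6.65 CPM in cDCs versus 9.36 and 11.7 CPM in pDCs, a difference of 0.56 ± 0.34 that was not called (edgeR adjusted p = 0.301). When libraries were scaled on the repeat windows, the median of all loci moved to -0.46, and the calls ended for Ptprf (0.77) and Ptprs (0.33), and the Ptprs call also ended when a fold of at least 1.5 was asked for.

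Of the 5 Ptprf sites 3 were called, and all 3 lay near the 5′ end of the gene. The site from 118288601 to 118288760, 2.69 kb after the annotated start, had 0 and 0.432 CPM in cDCs versus 5.93 and 2.25 CPM in pDCs at its window with the smallest p, which rest on 0, 5, 45 and 14 counts. A second site, 118287201 to 118287360, gave 0.0915 and 0.173 CPM against 3.03 and 1.61 CPM. The log2 differences at these windows were 4.16 ± 0.66 (edgeR adjusted p = 0.000252) and 4.02 ± 0.69 (edgeR adjusted p = 0.0008). The other 3 windows of the second site had 0.691 to 0.778 CPM in cDC replicate 2 and 1.29 to 2.41 CPM in pDC replicate 2, and the mean over the whole site differed by 2.83. Fitted differences at counts this low depend on the prior count. The third, 118295751 to 118296510, lay 4.51 kb before the start, outside the span, with 3.02 and 3.20 CPM in cDCs versus 9.49 and 6.43 CPM in pDCs (log2 1.37 ± 0.30, edgeR adjusted p = 0.0160). The third site was the strongest of the locus and lost its call without cDC replicate 1 (1.32), without cDC replicate 2 (1.40) and without pDC replicate 1 (1.42). The values of these sites are those of the window with the smallest p, which was chosen for its difference, here and at every site below.

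Of 6 Ptprs sites, 1 was called, 56443351 to 56443860, which lies inside the gene 18.6 kb after the nearest annotated start (distances are those of a site's strongest window). It had 1.10 and 2.07 CPM in cDCs and 13.6 and 7.56 CPM in pDCs. Both pDC values were several times the higher cDC value, and the difference was 2.73 ± 0.35 (edgeR adjusted p = 5.06e-05). The strongest Ptprs site, 56468751 to 56469160, had 12.1 and 11.7 CPM in cDCs and 22.8 and 17.1 CPM in pDCs at its highest window and was not called (edgeR adjusted p = 0.0628). The called Ptprs site was above input in pDCs and not in cDCs, while the strongest one was above input in both. Such verdicts against the input, here and at the sites below, rest on library sizes that include the repeat windows, and with totals outside them nearly all of the members' verdicts ended, as counted in the comparison with the input.

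**Figure D2:**
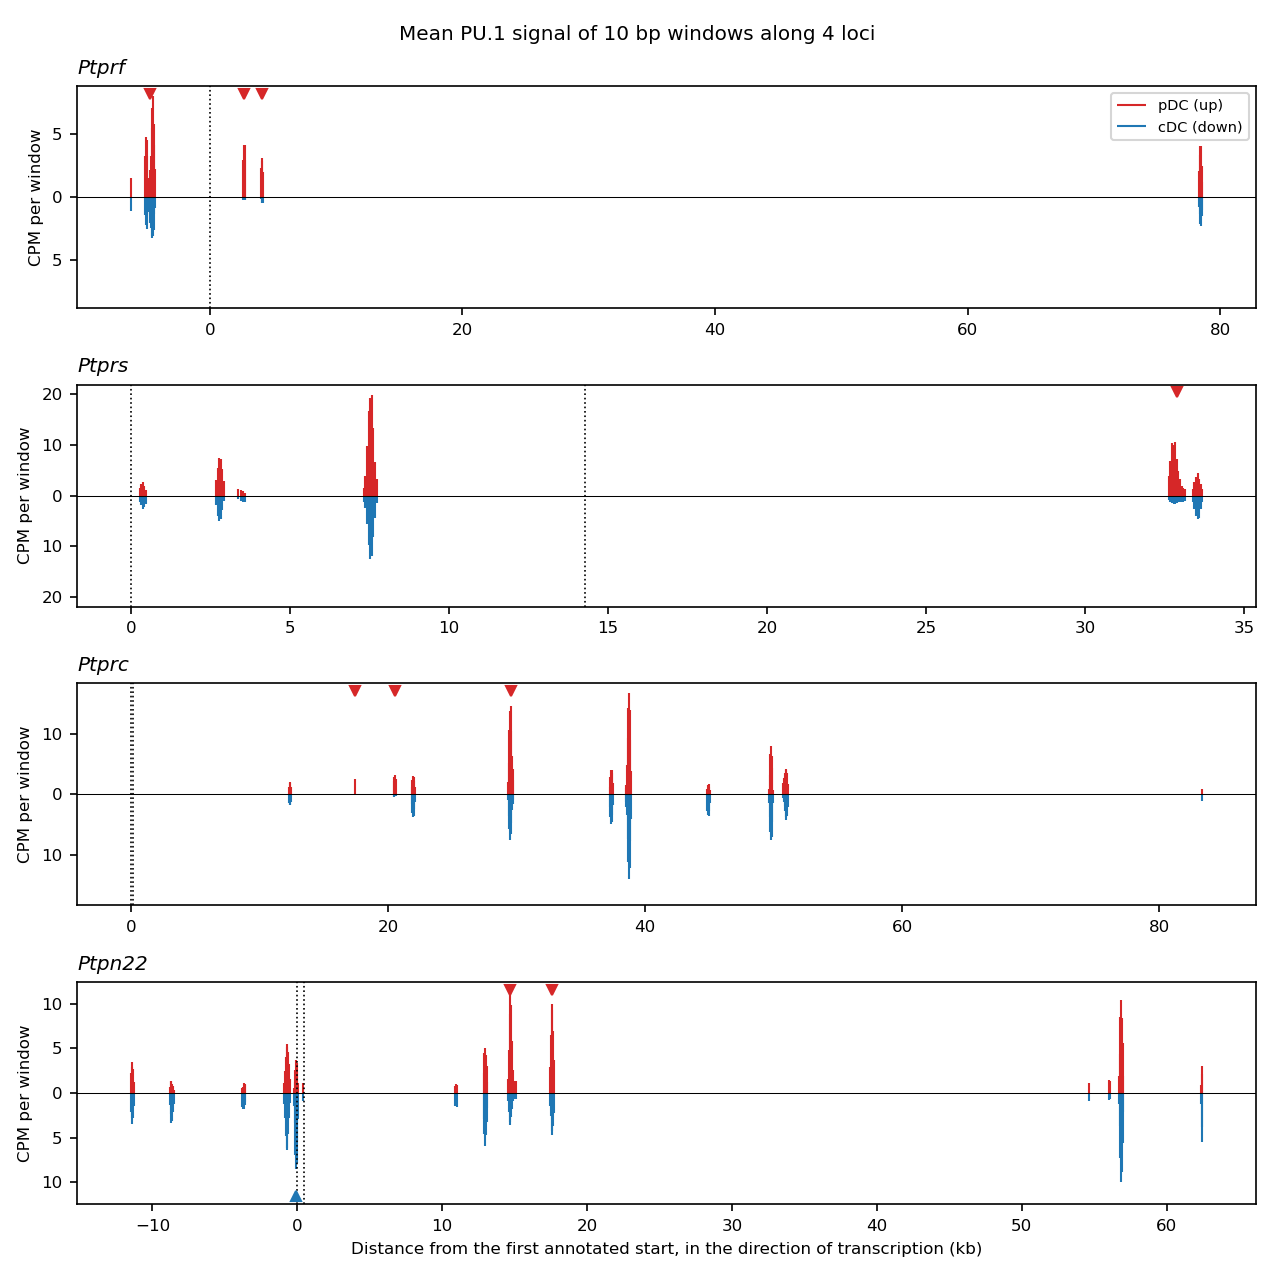
Mean CPM of each 10 bp window (vertical axis) along Ptprf, Ptprs, Ptprc and Ptpn22, with pDCs drawn upward and cDCs downward, against distance from the first annotated start in the direction of transcription (kb). Dotted lines mark annotated starts and triangles mark called sites: the called sites of Ptprf lie close to the start, those of Ptprs and Ptprc lie inside the gene, and Ptpn22 has 1 cDC-higher site on its start and 2 pDC-higher sites inside the gene.

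CD45, encoded by Ptprc, removes the inhibitory phosphate of Src-family kinases and is carried by all nucleated blood cells. Its locus, chromosome 1 from 138062859 to 138175756, gave 198 and 217 CPM in cDCs versus 261 and 248 CPM in pDCs. The pDC libraries were the higher pair, but the difference of 0.29 ± 0.12 was not called (edgeR adjusted p = 0.105). It was called without pDC replicate 1 (0.25, edgeR adjusted p = 0.0321) and without pDC replicate 2 (0.32, edgeR adjusted p = 0.00149). Ptprcap, whose product binds CD45, gave 121 and 119 CPM in cDCs versus 149 and 110 CPM in pDCs, where the groups overlap (log2 0.11 ± 0.15). Every tested Ptprcap window also lay in the loci of other genes, Coro1b and Rps6kb2 among them.

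Although the Ptprc locus as a whole was not called, 3 of its 11 sites were, all higher in pDCs and all inside the gene. The site 138154701 to 138154860 had 0.0915 and 0.432 CPM in cDCs versus 3.16 and 3.06 CPM in pDCs (log2 3.48 ± 0.58, edgeR adjusted p = 0.000616). The site 138157851 to 138157860, a single window, had 0.183 and 0.173 CPM against 3.03 and 1.93 CPM (log2 3.72 ± 0.63, edgeR adjusted p = 0.000289). At these windows the cDC libraries held at most 5 counts each. The stronger site 138145551 to 138145960 had 6.13 and 7.08 CPM in cDCs versus 17.8 and 11.4 CPM in pDCs (log2 1.15 ± 0.25, edgeR adjusted p = 0.0104), and its call ended without cDC replicate 1 (1.30), cDC replicate 2 (1.26) or pDC replicate 1 (0.92). The strongest Ptprc site, 138136401 to 138136810, had 12.8 and 14.9 CPM in cDCs and 17.0 and 16.2 CPM in pDCs and was not called.

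The SH2-domain phosphatases went in opposite directions. Ptpn6 (SHP-1), which is recruited by inhibitory receptors of haematopoietic cells, gave 206 and 213 CPM in cDCs versus 329 and 248 CPM in pDCs. Ptpn11 (SHP-2), a widely expressed phosphatase that carries growth factor and cytokine signals towards Ras, gave 103 and 99.2 CPM in cDCs versus 62.4 and 69.5 CPM in pDCs. Neither pair of groups overlapped. The differences were 0.46 ± 0.13 for Ptpn6 (edgeR adjusted p = 0.0299, 1.38-fold higher in pDCs) and -0.62 ± 0.15 for Ptpn11 (edgeR adjusted p = 0.0130, 1.53-fold higher in cDCs).

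Both locus calls ended without cDC replicate 1 (Ptpn6 0.43, Ptpn11 -0.60) and without cDC replicate 2 (Ptpn6 0.49, Ptpn11 -0.64), where the fit has 1 cDC library and takes its spread from the pDC pair. With scaling on the repeat windows the Ptpn6 value was -0.01 and the Ptpn11 value -1.16, and the Ptpn6 call also ended with library-size scaling (0.34) and with flanks of 50 kb (0.38). The Ptpn6 locus, chromosome 6 from 124720707 to 124738709, shares every tested window with neighbouring loci (Atn1, Emg1, Grcc10, Lpcat3 and Phb2), so its sum cannot be given to Ptpn6 alone. At Ptpn11, chromosome 5 from 121130533 to 121191397, 16.7% of windows are shared, with Rpl6.

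Of 7 Ptpn11 sites 1 was called, 121188301 to 121188610, which is the strongest of the locus and lies 2.94 kb after the start. It had 13.5 and 11.4 CPM in cDCs versus 2.64 and 4.18 CPM in pDCs. Both cDC libraries were above both pDC libraries by more than their own spread, with a log2 difference of -1.89 ± 0.29 (edgeR adjusted p = 0.000224), and the site was above input in cDCs and not in pDCs. The called Ptpn6 site, 124720801 to 124721310, lies 17.6 kb after the start, at the far end of the gene span. It had 7.23 and 8.29 CPM in cDCs versus 22.0 and 13.0 CPM in pDCs (log2 1.18 ± 0.26, edgeR adjusted p = 0.0124), and it was not called without cDC replicate 1 (1.08), cDC replicate 2 (1.40) or pDC replicate 1 (0.71).

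Of the KIM-type phosphatases, which dock on the MAP kinases ERK and p38, Ptprr was called and Ptpn5 and Ptpn7 were not. At Ptprr, chromosome 10 from 116018188 to 116274932, locus signal was 177 and 189 CPM in cDCs versus 100.5 and 142 CPM in pDCs, with no overlap. The difference was -0.60 ± 0.16 (edgeR adjusted p = 0.0166), or 1.52-fold higher in cDCs. The call ended without cDC replicate 1 (-0.65) and without cDC replicate 2 (-0.55). The site 116131301 to 116131610 had 7.96 and 8.55 CPM in cDCs versus 2.11 and 3.06 CPM in pDCs (log2 -1.69 ± 0.31, edgeR adjusted p = 0.0019). The strongest Ptprr site, 116191551 to 116192160, had 14.4 and 16.8 CPM against 8.84 and 11.4 CPM and was not called (edgeR adjusted p = 0.115).

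Ptpn7 (HePTP), the haematopoietic member of the KIM type, gave 104 and 106 CPM in cDCs versus 156 and 109 CPM in pDCs. The higher pDC mean came mainly from replicate 1, and the difference of 0.34 ± 0.16 was not called (edgeR adjusted p = 0.183), though it was without pDC replicate 2 (0.57). Ptpn5 (STEP), known from neurons, was not called as a locus (0.14 ± 0.15), yet its site 47103751 to 47104010, 28.7 kb after the start, had 1.19 and 0.950 CPM in cDCs versus 7.78 and 5.31 CPM in pDCs. That site differed by 2.61 ± 0.37 (edgeR adjusted p = 0.000123).

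**Figure D3:**
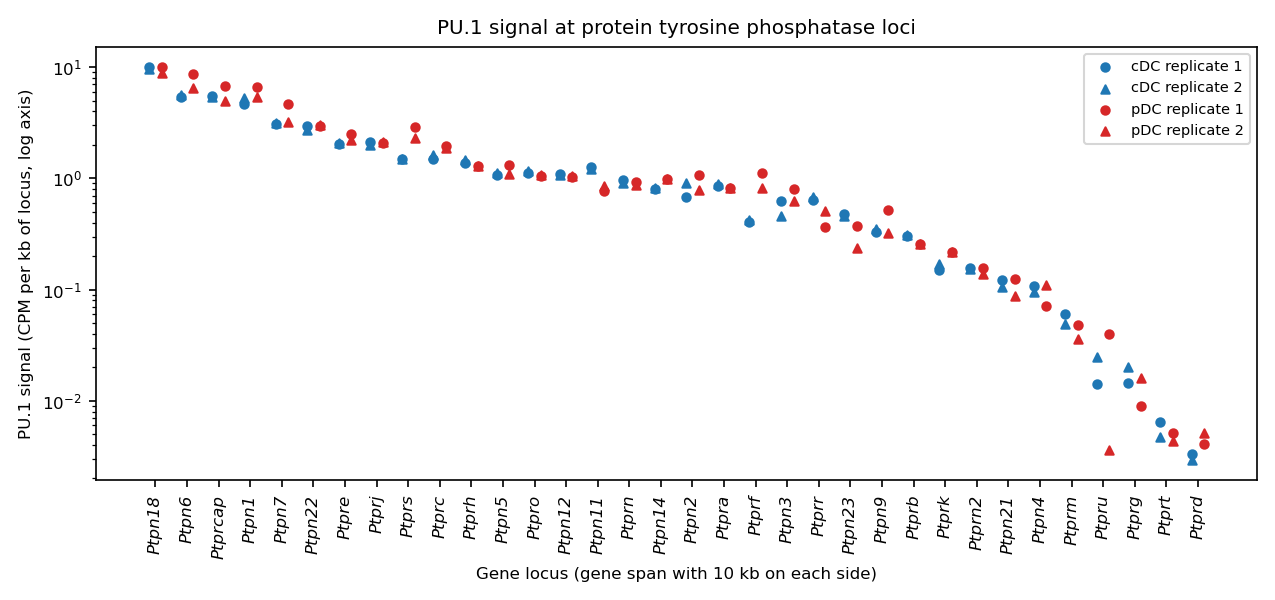
Locus signal in CPM per kb of locus (vertical axis, log scale) for the 34 measured members in order of their mean, with 1 point for each of the 2 cDC (blue) and 2 pDC (red) libraries. Ptpn18 stands highest at a mean of 9.69 CPM per kb and Ptprd lowest at 0.00386, and the 2 colours separate at Ptprf and Ptprs while they nearly coincide at Ptpn22 and Ptpn12.

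PEST-type and related cytosolic phosphatases gave no locus call (0 of 3), and 2 of the 3 had called sites of both directions. Ptpn22 (PEP, also called LYP), which acts on Src and Syk-family kinases, gave 224 and 207 CPM in cDCs versus 225 and 230 CPM in pDCs, nearly level (log2 0.08 ± 0.12, edgeR adjusted p = 0.711). Ptpn18, which acts on receptor kinases, gave 344 and 330 CPM against 342 and 304 CPM (log2 -0.06 ± 0.11). Ptpn12 (PTP-PEST), which acts on cytoskeletal adaptors, gave 97.2 and 95.0 CPM against 92.0 and 94.6 CPM (log2 -0.04 ± 0.14), with no called site.

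At Ptpn22 the site on the annotated start, chromosome 3 from 103859551 to 103859860, was the cDC-higher one. It had 7.96 and 6.05 CPM in cDCs versus 1.85 and 3.38 CPM in pDCs (log2 -1.45 ± 0.33, edgeR adjusted p = 0.0159), and was above input in cDCs and not in pDCs. Inside the gene, 14.2 kb after the start, the site 103874351 to 103874660 had 2.84 and 2.59 CPM in cDCs versus 11.6 and 8.04 CPM in pDCs (log2 1.86 ± 0.29, edgeR adjusted p = 0.000437). The groups did not overlap at either site, and the directions were opposite, as the tracks of the 4 loci show. A further site, 103877251 to 103877510, had 2.29 and 2.85 CPM against 6.99 and 6.11 CPM (log2 1.35 ± 0.31, edgeR adjusted p = 0.0105). The start site lost its call without cDC replicate 1 (-1.24) and without pDC replicate 1 (-1.05), and the site at 103877251 without cDC replicate 1 (1.19) and cDC replicate 2 (1.39). Of the Ptpn22 windows, 65.2% are shared with the loci of Bcl2l15 and Rsbn1.

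Ptpn18, on chromosome 1 from 34459729 to 34473784, had a site called higher in cDCs, 34468101 to 34468760, which joins 2 summits. The window called, at 34468601, had 14.8 and 14.6 CPM in cDCs versus 5.93 and 7.40 CPM in pDCs (log2 -1.15 ± 0.25, edgeR adjusted p = 0.0119). Its pDC-higher site, 34472551 to 34472910, had 7.87 and 8.90 CPM against 14.8 and 16.2 CPM (log2 0.88 ± 0.23, edgeR adjusted p = 0.0460). The other summit of the cDC-higher site, at 34468251, holds its strongest window, with 16.6 and 13.8 CPM in cDCs and 14.1 and 12.1 CPM in pDCs, and the mean over all windows of the site differed by -0.57. Both sites were above input in both cell types, and they were the 2 strongest sites of the locus. Neither call held without cDC replicate 1 (-1.22 and 0.79) or without cDC replicate 2 (-1.16 and 0.98).

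Promoters were read because PU.1 recognises purine-rich GGAA sequence, and 9 of the 46 member promoters, each 300 bases long, held a tested window (19.6%, against 17.5% of 32851 promoters). The motifs searched were GAGGAAGT and its shorter core GAGGAA, on both strands, where every GAGGAAGT also holds GAGGAA. GAGGAAGT was in 0 of 46 member promoters and 3.20% of all. GAGGAA was in 21 of 46 (45.7%), against 28.3% of all. It was in 5 of the 9 with a tested window, against 38.1% of all promoters with one. The 46 promoters belong to 32 members, so some are starts of the same gene. Below are the 250 bases before the start, from RefSeq (GRCm38.p6), for 4 of those promoters and for Ptpn6, which has no match, written 5′ to 3′ on the gene's strand with each GAGGAA, or its reverse complement TTCCTC, in capitals.
Ptpn22, chr3:103859545-103859794, plus strand: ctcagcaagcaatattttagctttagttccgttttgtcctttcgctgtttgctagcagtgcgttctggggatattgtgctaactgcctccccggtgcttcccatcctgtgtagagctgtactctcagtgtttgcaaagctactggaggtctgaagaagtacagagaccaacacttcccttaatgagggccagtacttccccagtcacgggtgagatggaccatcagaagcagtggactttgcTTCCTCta
Ptpn7, chr1:135132450-135132699, plus strand: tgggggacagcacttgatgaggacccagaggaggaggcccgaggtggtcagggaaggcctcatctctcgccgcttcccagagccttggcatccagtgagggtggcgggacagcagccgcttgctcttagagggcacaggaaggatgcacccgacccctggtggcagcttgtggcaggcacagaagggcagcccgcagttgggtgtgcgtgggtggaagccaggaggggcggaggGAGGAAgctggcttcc
Ptprj, chr2:90580596-90580845, minus strand: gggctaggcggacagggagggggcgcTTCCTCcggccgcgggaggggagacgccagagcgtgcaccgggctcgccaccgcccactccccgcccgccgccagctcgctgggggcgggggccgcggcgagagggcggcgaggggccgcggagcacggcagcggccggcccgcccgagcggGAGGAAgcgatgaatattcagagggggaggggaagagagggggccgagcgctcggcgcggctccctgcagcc
Ptprr, chr10:116018113-116018362, plus strand: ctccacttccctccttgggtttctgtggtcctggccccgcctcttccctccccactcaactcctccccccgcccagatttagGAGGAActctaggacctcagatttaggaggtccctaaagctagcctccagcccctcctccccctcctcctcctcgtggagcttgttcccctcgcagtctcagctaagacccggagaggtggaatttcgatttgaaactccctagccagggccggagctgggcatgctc
Ptpn6, chr6:124738710-124738959, minus strand: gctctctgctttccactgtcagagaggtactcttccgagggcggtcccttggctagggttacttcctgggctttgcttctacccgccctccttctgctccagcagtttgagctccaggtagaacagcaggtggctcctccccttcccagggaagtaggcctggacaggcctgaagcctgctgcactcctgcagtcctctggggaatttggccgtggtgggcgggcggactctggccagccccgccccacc

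The Ptpn22 match lies 8 bases before the start, and the highest window of that promoter had 9.88 and 7.08 CPM in cDCs versus 2.51 and 4.99 CPM in pDCs. The Ptpn7 promoter, with its match 16 bases before the start, had 4.12 and 4.58 CPM in cDCs versus 7.78 and 3.70 CPM in pDCs, which overlap. The Ptprj promoter, with matches 72 and 224 bases before the start, had 1.37 and 3.54 CPM against 3.43 and 1.29 CPM. At Ptprr the match is 168 bases before the start, with 4.48 and 4.15 CPM in cDCs and 3.30 and 3.54 CPM in pDCs. At Ptpn22 and Ptprr both cDC values were above both pDC values, and of these promoters Ptpn22 held a called site. The Ptpn6 promoter held windows of 6.49 and 8.12 CPM in cDCs and 7.52 and 7.56 CPM in pDCs. A match says only that these letters are in the sequence, and a promoter without one says nothing about PU.1.

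PTP1B (Ptpn1) and TCPTP (Ptpn2), which act on JAK kinases and their receptors, were not called as loci. Ptpn1 gave 318 and 360 CPM in cDCs versus 452 and 369 CPM in pDCs (log2 0.28 ± 0.12, edgeR adjusted p = 0.137), called without pDC replicate 2 (0.41). The Ptpn1 locus was also called higher in pDCs with the gene span alone, and its log2 reached at most 0.66 across the alternatives. Ptpn2 gave 53.5 and 71.4 CPM against 84.4 and 62.3 CPM, where the groups overlap (log2 0.23 ± 0.19), called without pDC replicate 2 (0.43). The strongest of all member sites, 167925001 to 167925510 on chromosome 2, lies 7.07 kb before the Ptpn1 start and had 33.6 and 35.8 CPM in cDCs versus 44.8 and 35.9 CPM in pDCs. It was not called (edgeR adjusted p = 0.976), while a weaker site inside the gene, 167959651 to 167959910, had 1.65 and 2.33 CPM against 11.1 and 6.76 CPM (log2 2.17 ± 0.32, edgeR adjusted p = 0.000234).

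The remaining receptor types held 1 locus call. Ptprk, a MAM-domain receptor that binds itself on the next cell, gave 80.9 and 92.7 CPM in cDCs versus 118 and 119 CPM in pDCs (log2 0.45 ± 0.14, edgeR adjusted p = 0.0437), and reached -0.08 with library sizes from the repeat windows. The groups did not overlap, but the call ended without cDC replicate 1 (0.35), without cDC replicate 2 (0.55), under DESeq2 (0.41), with TMM factors from locus sums (0.41) and under scaling by library size (0.32). Its site 28463751 to 28464060 was higher in pDCs, at 4.02 and 5.44 CPM against 11.9 and 8.85 CPM (log2 1.13 ± 0.27, edgeR adjusted p = 0.0192). A far weaker site, 28483451 to 28483510, was higher in cDCs, at 1.83 and 1.55 CPM against 0 and 0.322 CPM, which rest on 20, 18, 0 and 2 counts. Both site calls ended without cDC replicate 1 (0.93 and -3.29), without cDC replicate 2 (1.37 and -3.51) and without pDC replicate 1 (0.92 and -2.35), and under DESeq2. The other MAM-domain receptors, Ptprm, Ptprt and Ptpru, were not called.

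The receptors with fibronectin repeats and 1 catalytic domain had no locus call among 4 measured (Ptprj, Ptpro, Ptprb and Ptprh). Ptprj (CD148), which acts on Src-family kinases in blood cells, gave 361 and 338 CPM in cDCs versus 359 and 367 CPM in pDCs (log2 0.05 ± 0.11). Of its 21 sites, the one 1.34 kb after the start, 90579101 to 90579410, had 5.58 and 4.84 CPM in cDCs versus 16.1 and 9.81 CPM in pDCs (log2 1.33 ± 0.27, edgeR adjusted p = 0.00488), lost without cDC replicate 1 (1.42), cDC replicate 2 (1.22) or pDC replicate 1 (0.91). Its other called site, 90504751 to 90505110, was called from an edge window (log2 -2.08 ± 0.53), while the mean over the whole site differed by -0.10. Ptpro gave 257 and 268 CPM against 244 and 250 CPM (log2 -0.09 ± 0.11), with 1 called site, 137292601 to 137292710, at 1.46 and 1.55 CPM in cDCs and 0 and 0.322 CPM in pDCs. That call ended without cDC replicate 1 (-3.29), cDC replicate 2 (-3.19) or pDC replicate 1 (-2.19).

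The short-ectodomain receptors Ptpra and Ptpre, activators of Src-family kinases, were not called as loci. Ptpre gave 346 and 348 CPM in cDCs versus 423 and 376 CPM in pDCs (log2 0.20 ± 0.11, edgeR adjusted p = 0.224), called without pDC replicate 2 (0.28). Of its 25 sites 3 were higher in pDCs, the clearest being 135668851 to 135669110 with 1.19 and 1.47 CPM against 9.49 and 3.86 CPM (log2 2.34 ± 0.40, edgeR adjusted p = 0.00085). Ptpra gave 107 and 111 CPM against 102 and 102 CPM (log2 -0.09 ± 0.14) and had 2 pDC-higher sites and 1 cDC-higher site.

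The FERM-domain phosphatases, which sit at the cell cortex and junctions, gave no locus call among 4 measured, yet 2 of them held pDC-higher sites and no cDC-higher one. Ptpn3 gave 105 and 76.7 CPM in cDCs versus 134 and 105 CPM in pDCs (log2 0.40 ± 0.17) and had 3 called sites, with log2 differences from 1.72 to 2.60. The largest of these, 57194551 to 57194610 on chromosome 4, had 0.274 and 0.432 CPM against 2.90 and 1.45 CPM. Ptpn14, a regulator of YAP, gave 136 and 139 CPM in cDCs versus 165 and 167 CPM in pDCs (log2 0.27 ± 0.12) with 2 called sites (1.71 and 2.30). All of these site calls ended without cDC replicate 1, with values between 1.69 and 2.72. The granule-type receptors Ptprn and Ptprn2, Ptprg, Ptpn9 and Ptpn23 had no locus call, with log2 differences between -0.60 (Ptpn23) and 0.33 (Ptpn9).

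At several named members the strongest site was not called. At Ptpn7 it lay 1.49 kb before the start, 135131051 to 135131410, with 14.7 and 14.0 CPM in cDCs and 21.5 and 13.7 CPM in pDCs at its highest window. At Ptpn12 the site 21030201 to 21030610 had 16.1 and 14.4 CPM in cDCs and 14.8 and 15.1 CPM in pDCs, and at Ptpn22 the site 103916501 to 103916810, past the end of the gene, had 10.3 and 9.50 CPM and 10.5 and 10.3 CPM. At these sites the libraries overlap or nearly touch, and none was called. The Ptpre site 135655151 to 135655660 had 10.7 and 10.4 CPM in cDCs and 14.0 and 12.1 CPM in pDCs, and the Ptpro site 137386351 to 137386710 had 15.9 and 14.9 CPM and 12.4 and 11.9 CPM, in both cases without overlap and without a call. Of the 35 called sites, 7 were the strongest of their locus.

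Site by site, the members' loci held 234 sites of 60527 in the genome, a median of 5.5 a locus against 3 over all loci. Of these, 26 were higher in pDCs (11.1%, against 8.46% of all sites) and 9 higher in cDCs (3.85%, against 6.00%), so 35 were called (15.0%, against 14.5%). In 24 of the 26 pDC-higher sites pDC replicate 1 was above pDC replicate 2 at the window with the smallest p, and in 7 of the 9 cDC-higher sites it was below. The matching shares over all called sites of the genome are not given here, so these counts are no trait of the members. The sites were weak in many cases: 16 of the 35 had a strongest window with a mean under 2 CPM, as had 99 of all 234.

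**Figure D4:**
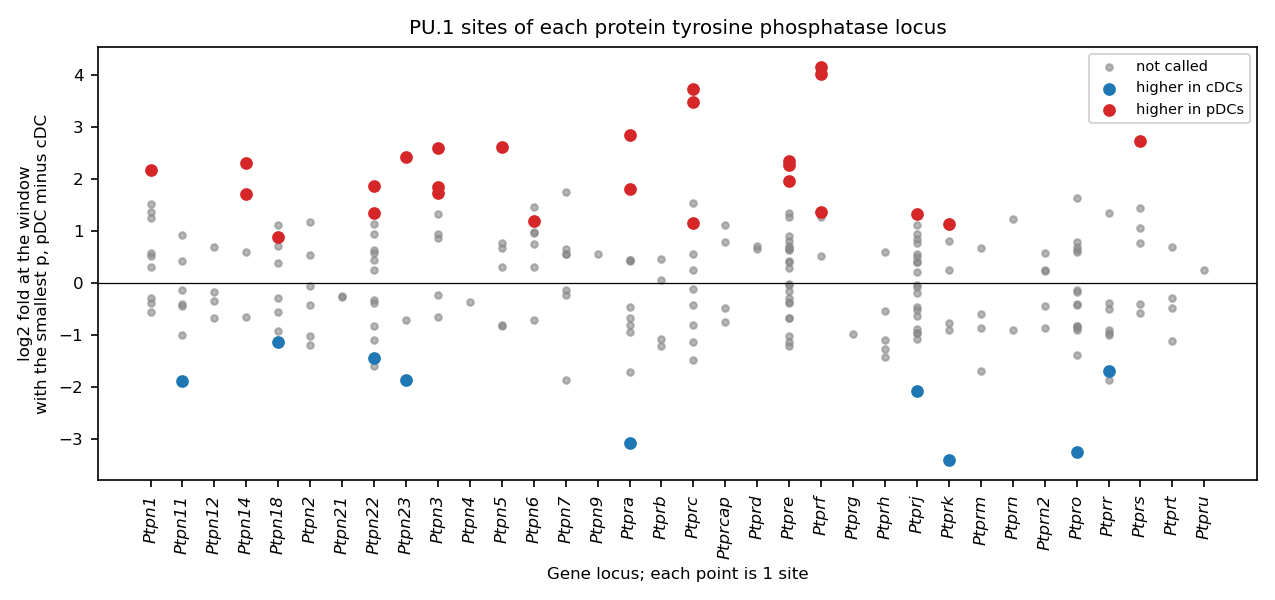
Log2 difference (vertical axis, pDC minus cDC, at the window with the smallest p) of each of the 234 member sites, with 1 column of points per locus. Red points are the 26 sites higher in pDCs, blue points the 9 higher in cDCs and grey points those not called; red and blue share a column at the 6 loci with called sites of both directions.

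Called sites occurred at 18 of the 34 members. Of the 28 loci that were not called, 12 held at least 1 called site (42.9%, against 21.5% of all uncalled loci), which is a description, since members' loci hold more sites than the median locus. Called sites of both directions occurred at 6 members (17.6%, against 3.73% of all loci): Ptpn18, Ptpn22, Ptpn23, Ptpra, Ptprj and Ptprk. This too is a description, for the same reason. At each of these 6 members the cDC-higher site lost its call under DESeq2 and without cDC replicate 1. Of the 23 member sites with at least 10 CPM at the strongest window, 6 were called (26.1%), against 13.0% of the 3865 such sites in the genome. These 6 lay at Ptpn18, Ptprj, Ptprc and Ptpn6. Each lost its call under DESeq2, with a minimum fold of 1.5, without cDC replicate 1 and without cDC replicate 2. At the Ptprj site 90504751 the call came from an edge window, and at the Ptpn18 site 34468101 from the summit without the strongest window.

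Only 7 of the 35 site calls held in every alternative in which they could be tested: 2 each at Ptprf and Ptprc and 1 each at Ptprs and Ptpn5, all higher in pDCs, and 1 at Ptpn11, higher in cDCs. Of these, the sites at Ptprf, Ptprc and Ptpn5 could not be tested in the alternative with a mean of at least 30 counts. Leaving out cDC replicate 1 ended 23 of the 35 calls, cDC replicate 2 ended 20, pDC replicate 1 ended 18 and pDC replicate 2 ended 1. The DESeq2 test ended 25 of the 35 calls, library sizes from repeat windows ended 21 and a minimum fold of 1.5 ended 18. The Ptprr site and the Ptpra site at 130540501 ended only under DESeq2. The Ptpn1 site at 167959651, the Ptpn22 site at 103874351 and the Ptpre site at 135668851 ended only with repeat-window sizes. No call changed direction. Refitted in full, the count of pDC-higher sites was 10, 12, 15 and 43 without those libraries in turn, and that of cDC-higher sites 2, 3, 4 and 22.

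Position was described from annotated starts where the promoter table lists one. Of 234 sites, 188 (80.3%) lay in a member's own span, and 32 of the 35 called sites did. Of all sites in loci, 78.1% lay in the span of any gene, a wider measure, so these shares are not alike. Of the 214 sites of members with a listed start, 20 (9.35%) lay within 1 kb of one, and of the 35 called sites 2 did so, those of Ptpn22 and Ptpn23. The Ptpn23 site, 110407901 to 110408160 on chromosome 9, had 2.56 and 2.76 CPM in cDCs versus 0.923 and 0.483 CPM in pDCs (log2 -1.86 ± 0.50, edgeR adjusted p = 0.0445). That call ended without cDC replicate 1 (-1.93), cDC replicate 2 (-1.81) or pDC replicate 2 (-1.52). Ptpn23 encodes HD-PTP, which works in endosomal sorting. Exon, intron and UTR positions were not used here.

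Compared with the single input, 86 member sites were above it at least 2-fold in cDCs (36.8%, against 31.5% of all sites) and 85 in pDCs (36.3%, against 28.4%), 72 of them in both (30.8%, against 22.3%). Of the 26 pDC-higher sites, 15 were above input in pDCs and 7 in cDCs. Of the 9 cDC-higher sites, 5 were above input in cDCs and 2 in pDCs. These counts rest on library sizes from totals that include the 146 repeat windows. These windows were defined by at least 1000 input counts alone, not by a repeat annotation, and hold 74.6% of the input counts. With totals outside them 2 sites passed in cDCs and 2 in pDCs. The called sites held at most 4 input counts at the window with the smallest p.

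Per kb of locus, mean signal over the 4 libraries was highest at Ptpn18 (9.69 CPM per kb), Ptpn6 (6.56), Ptprcap (5.66), Ptpn1 (5.46) and Ptpn7 (3.54), and lowest at Ptprd (0.00386 CPM per kb). The members' median was 0.880 CPM per kb, against 0.642 over all loci, and 20 of the 34 lay above the latter. The sum is divided by the length of the locus, and Ptprd and Ptprt are among the longest genes of the family. Of the 34 members, 6 shared every tested window with other loci and 18 shared none.

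Partners of the phosphatases were read from lists. Of 13 Src-family kinases and regulators, 2 were higher in pDCs and none in cDCs, with a median log2 of 0.19: Blk gave 51.9 and 53.6 CPM in cDCs versus 170 and 96.0 CPM in pDCs (log2 1.34 ± 0.21, edgeR adjusted p = 0.0011), and Fgr differed by 0.59 ± 0.14 (edgeR adjusted p = 0.0120). Of 18 receptors and adaptors that recruit SH2-domain phosphatases, 2 were higher in pDCs (Gab1 and Milr1) and 2 in cDCs (Pecam1 and Siglece), with a median of 0.15. The Gab1 sums were low, at 5.49 and 3.46 CPM in cDCs versus 13.3 and 12.9 CPM in pDCs. Of 14 JAK and cytokine-receptor genes, 3 were higher in pDCs (Stat5a, Stat5b and Ifnar2) and 1 in cDCs (Kit), with a median of 0.12. Of 9 dual-specificity MAP kinase phosphatases, Dusp8 was higher in pDCs and Dusp1 in cDCs, with a median of -0.07. The Dusp8 sums were low, at 1.46 and 0.432 CPM in cDCs versus 9.49 and 4.50 CPM in pDCs. Those of Dusp1 were 93.5 and 95.0 CPM in cDCs versus 51.3 and 62.3 CPM in pDCs. Over all loci the median is 0.05, with 9.54% called higher in pDCs and 6.97% higher in cDCs.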

How the data were processed

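The authors deposited unnormalised read counts for windows of the genome. Per the submitters' processing notes Subread 1.4.4 and build mm10 were used, and neither the step nor the read filters are stated in the labels. Windows were 10 bp wide on a 50 bp grid, 329996 in all. No listed window summed to fewer than 33 counts. Whether neighbouring windows share reads is not stated, and sequencing depth is unknown. Of these, 286435 passed filterByExpr (minimum count 10).

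Tests were edgeR quasi-likelihood fits (edgeR 4.0.16 with limma 3.58.1 and GenomicRanges 1.54.1 in R 4.3.3) of cell type alone, with TMM factors from the tested windows. P-values were adjusted by Benjamini-Hochberg over all loci or sites and called at 0.05. Sites joined windows at most 100 bp apart, split at 5000 bp, with Simes p-values. Gene spans came from RefSeq GRCm38.p6, which has the coordinates of mm10. DESeq2 1.42.0 was an alternative. The locus test was run on simulated locus counts, and the Simes step was checked on a small example. The window tests, the joining of sites and the comparison with the input were not tested on simulated data.

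Named were every called member and a set of members known in leukocytes. Called sites (at most 3 a member) and strongest sites are described for part of the members only. Others, such as the called sites of Ptpra, are counted without their values. Members and lists were chosen with earlier results of these data known. The mean chi-square per window of replicates was 1.44 for cDCs and 3.18 for pDCs, over windows with at least 20 counts in the pair, where counting error alone gives about 1, so neither pair is a duplicate deposit. Same-numbered replicates did not deviate together (correlation 0.02 over windows and -0.18 over member loci), and no shared day or litter is labelled. Results by alternative are in the closing part. Columns outside the 5 libraries were 0.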

Additional observations from a re-analysis of the deposited data

How the results depend on the processing

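The 4 loci higher in pDCs became 2 with library-size scaling, 0 with library sizes from repeat windows and 1 with a minimum fold of 1.5, and 2 to 13 when 1 library was left out (13 without pDC replicate 2). The 2 loci higher in cDCs became 0 with repeat-window sizes and 0 with the minimum fold, and 0 to 4 with 1 library left out. The 26 pDC-higher sites became 7 with repeat-window sizes, 9 with DESeq2, 13 with windows of 30 or more mean counts and 13 with the minimum fold, and 10 to 43 with 1 library left out. The 9 cDC-higher sites became 15 with library-size scaling, 1 with DESeq2 and 4 with the minimum fold, and 2 to 22 with 1 library left out. Sites above input fell from 86 (cDC) and 85 (pDC) to 2 and 2 with library sizes outside repeat windows. The cause was not tested. With the replicate number as a block the counts were 4 and 2 loci and 28 and 11 sites. The median of all loci was 0.05, and -0.08 with library-size scaling and -0.46 with repeat-window sizes.

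Log2 values whose sign reversed, none of them with a call of the reversed sign, were these. With repeat-window sizes, 10 of the 18 named loci: Ptpn1 -0.21, Ptpn2 -0.25, Ptpn22 -0.45, Ptpn6 -0.0091, Ptpn7 -0.12, Ptprc -0.23, Ptprcap -0.35, Ptpre -0.30, Ptprj -0.47 and Ptprk -0.084. With library-size scaling: Ptpn22 -0.051, Ptprcap -0.011 and Ptprj -0.075. With each window given to its nearest gene: Ptpn12 0.0037 and Ptprcap -0.19. With flanks of 50 kb: Ptpn18 0.14 and Ptpra 0.012. With 1 library left out, Ptpn18 ran from -0.15 to 0.019 (without pDC replicate 2), Ptpn2 from -0.0062 (without pDC replicate 1) to 0.46, and Ptprcap from -0.13 (without pDC replicate 1) to 0.31. With the gene span alone Ptprcap was -0.29. The alternative with a mean of at least 30 counts left 17 of the 35 called sites to test. The pDC libraries had the lower totals over listed windows, and sequencing depth is unknown.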
